A study of Mus musculus with 40 samples.

Results

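The long noncoding RNAs *Malat1*, *Neat1*, *Meg3*, *Rian*, *Miat* and *Snhg11* were followed through every library of a mouse striatum RiboTag series, as the 6 rows with these symbols among the 24060 gene symbols of its count table. RiboTag places a haemagglutinin (HA) tag on the ribosomal protein RPL22 in a chosen cell type, so that ribosomes and the RNA on them can be pulled out of a tissue lysate. The immunoprecipitated RNA (IP) is then compared with RNA of the same cleared lysate before the pull-down (input). Each RNA was given as a normalised read count (CPM, the counts of a gene scaled to the total of its library), and where levels of different genes are set side by side, as FPKM, which is further divided by the length of the exons.

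The 40 libraries fell into 10 groups of 4. Control input and IP came from C57/BL6NTac mice whose labels do not name the virus, and the IP was taken as that of the astrocyte RiboTag (AAV with the gfaABC1D promoter) from the study's methods. Syn input and IP came from C57/BL6NTac mice, with RiboTag under the neuronal hSyn1 promoter. Both viruses were injected into the dorsal striatum at 6 weeks of age. The SAPAP3 cohort held input and IP of C57/BL6J mice (WT) and of C57/BL6J-Dlgap3 KO mice (KO), which lack the postsynaptic scaffold SAPAP3 in all cells. The methods give 4.5 months of age for the RiboTag virus in SAPAP3 KO mice, and neither they nor the labels name the cell type of the tag in this cohort. WT bulk and KO bulk held RNA of whole striatal tissue without a pull-down, all labelled C57/BL6NTac. One animal number stands under both genotypes of the bulk samples, and the labels hold 27 animal numbers where the design text counts 24 mice. RPL22-HA reaches only cells that the virus infects and that use its promoter, and the fold changes compare mixtures of RNA, in which fewer cells of a type and less RNA per cell cannot be told apart.

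Long noncoding RNAs are transcribed and often spliced like mRNAs but encode no known protein. *Malat1* is retained in nuclear speckles, and *Neat1* is the scaffold of paraspeckles, another nuclear body. *Meg3* and *Rian* are expressed from the maternal copy of the imprinted Dlk1-Dio3 region, *Miat* (also called Gomafu) sits in its own nuclear domain in neurons, and *Snhg11* is a host gene of small nucleolar RNAs. A ribosome pull-down takes up RNA that is engaged by ribosomes in the cytoplasm, and RNA that stays in the nucleus or is not bound by ribosomes can still reach the IP as carry-over.

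The RNA ends were shown because the libraries' labels name both poly(A) RNA and ribosomal RNA depletion, and these transcripts do not all end in a poly(A) tail. What part the library type has in the levels was not tested. Coordinates and sequences are those of RefSeq on GRCm38.p6 (mm10). *Malat1* (chr19:5795690-5802672, minus strand, 1 exon of 6983 bases) and *Neat1* (chr19:5824708-5845480, minus strand, transcripts of 3185 and 20771 bases, each of 1 exon) are neighbours. *Malat1* and the long *Neat1* share a run of 16 bases near their mature ends, which is rich in T, and an A-rich run of 11 bases at the end itself. Both runs are in capitals below, and in the textbook picture they are part of a triple helix that takes the place of the poly(A) tail.
Malat1 before the cut, chr19:5795982-5796033: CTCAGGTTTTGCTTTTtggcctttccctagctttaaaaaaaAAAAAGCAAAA
Neat1 long 3′ end, chr19:5824708-5824766: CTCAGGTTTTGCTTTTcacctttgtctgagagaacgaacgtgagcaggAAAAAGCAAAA
mascRNA, chr19:5795924-5795981: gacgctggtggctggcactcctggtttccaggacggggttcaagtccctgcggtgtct
The third sequence is the small tRNA-like mascRNA that is cut off *Malat1* and that the annotation places inside the *Malat1* exon. Among 11787 GENCODE M21 long noncoding transcripts of at least 700 bases, 2 held the shared run (0.0170%) in their last 700 bases, and 0 held its reverse complement. The run was picked as the longest that *Malat1* and *Neat1* share. Their own transcripts were not left out of this count, so the 2 can be theirs.

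The short *Neat1* transcript and *Snhg11* (chr2:158375713-158386474, plus strand, 5 exons) end instead behind an AATAAA polyadenylation hexamer, shown in capitals in their last 80 bases.
Neat1 short 3′ end, chr19:5842296-5842375: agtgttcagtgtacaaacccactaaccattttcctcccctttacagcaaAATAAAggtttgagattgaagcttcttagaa
Snhg11 3′ end, chr2:158386395-158386474: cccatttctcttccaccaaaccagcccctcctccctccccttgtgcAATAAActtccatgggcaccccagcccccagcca
AATAAA or ATTAAA stood in the last 100 bases of 9 of the 10 RefSeq transcripts of the 6 genes, all but the long *Neat1*, and of 41.3% of 18914 GENCODE M21 long noncoding transcripts. The hexamer of *Malat1* lies 16 bases from its annotated end, beyond mascRNA, and so not at the mature end shown above. *Miat* (chr5:112213228-112228948, minus strand, 7 exons) carries copies of TACTAAC, the consensus of the intron branch point, which is known to bind the splicing factor SF1. The stretch that holds 3 of its 6 copies is shown with those copies in capitals.
Miat, chr5:112217319-112217450: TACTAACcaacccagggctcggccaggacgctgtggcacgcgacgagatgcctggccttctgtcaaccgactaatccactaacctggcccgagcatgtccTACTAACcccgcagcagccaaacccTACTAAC
Each *Miat* transcript held 6 copies and 0 of the reverse complement, against at least 1 copy in 3.78% of 18930 GENCODE M21 long noncoding transcripts and at least 6 in 3 of them. The limit of 6 is the count of *Miat* itself, which was not left out, so the 3 can include *Miat* transcripts. The long *Neat1* held 1 copy and the other members none on the transcript strand. *Meg3* (chr12:109540996-109571729) and *Rian* (chr12:109603945-109661716) lie on the plus strand of the same imprinted region, where the protein-coding *Rtl1* on the minus strand overlaps exons of both. The longest reading frame that starts with ATG spanned 64 codons in *Malat1*, 89 in *Snhg11*, 83 in *Rian*, at most 126 in *Neat1*, at most 179 in *Miat* and at most 186 in *Meg3*.

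Libraries held between 23438112 and 84109800 counted reads. Of 10 astrocyte markers, 10 were higher in the Control IP (median log2(FC) 3.13), and so were 10 in the SAPAP3 cohort, by a median of 2.24 in WT and 2.39 in KO. In the Syn IP, 3 of 10 neuron markers were called higher and 7 were not (median 0.80), and the astrocyte markers had a median of -0.51. *Dlgap3*, the gene of SAPAP3, stood at 166 to 200.03 CPM in KO input against 376 to 514 CPM in WT input, and at 49.8 to 87.2 CPM in KO IP against 154 to 212 CPM in WT IP. In bulk tissue it stood at 144 to 161 CPM in KO, at 338 to 385 CPM in WT replicates 1 to 3 and at 232 CPM in WT replicate 4. Its KO level was thus 43.7% of WT in the input (adjusted p = 0.00698), 37.8% in the IP (0.0283) and 45.3% in bulk (0.318), by edgeR. The input call was lost without KO input replicates 2, 3 or 4, and the IP call without any 1 library other than KO IP replicate 1 (log2(FC) -1.46 to -1.29 in those fits). The SAPAP3 cohort WT IP replicate 4 stood apart in the members, which took 0.0719% of its counts and 0.301% at most in the other libraries of its group. Its summed oligodendrocyte markers, 11145 CPM, were the highest of the group, whose other libraries had 7665 to 9180 CPM. The part of these markers in its low member levels was not tested. Values without this library are given for *Malat1* in IP over input, and in the other comparisons where a call or sign changed. With any 1 library left out, log2(FC) of WT IP over input ranged from -2.90 to -2.39 for *Meg3* and -2.49 to -1.91 for *Snhg11*. It ranged from -2.43 to -1.87 for *Miat*, -2.38 to -2.17 for *Rian* and -1.82 to -1.49 for *Neat1*.

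The 6 RNAs were abundant in the input and poor in the IP. Together they held 1.40% ± 0.0724 (SD, n = 4) of the counts of the Control input and 0.264% ± 0.0292 of the Control IP. The same shares were 1.07% ± 0.101 and 0.0983% ± 0.0181 for Syn, 0.986% ± 0.253 and 0.202% ± 0.0956 for the SAPAP3 cohort WT, and 0.873% ± 0.184 and 0.208% ± 0.0306 for the KO. Bulk tissue held 0.790% ± 0.0563 in WT and 0.755% ± 0.0754 in KO. *Malat1* made up most of each share.

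Per length, *Malat1* was the highest of the 6 in each of the 10 groups, from 1632 ± 102 FPKM in the Control input down to 104 ± 21.6 FPKM in the Syn IP. *Rian* followed in the Control input (169 ± 5.28 FPKM), ahead of *Snhg11* (103 ± 4.94 FPKM) and *Meg3* (94.1 ± 11.7 FPKM), whose spreads overlapped. *Miat* (10.5 ± 0.753 FPKM) and *Neat1* (3.09 ± 0.576 FPKM) were lowest. The *Neat1* and *Meg3* values depend on the isoform counted. With the shortest transcript as the length, a choice made after the data were seen, *Neat1* came to 20.2 FPKM in the Control input, above *Miat*, and *Meg3* to 638 FPKM, above *Rian*. With its longest transcript *Meg3* came to 106 FPKM, above *Snhg11*.

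**Figure D1:**
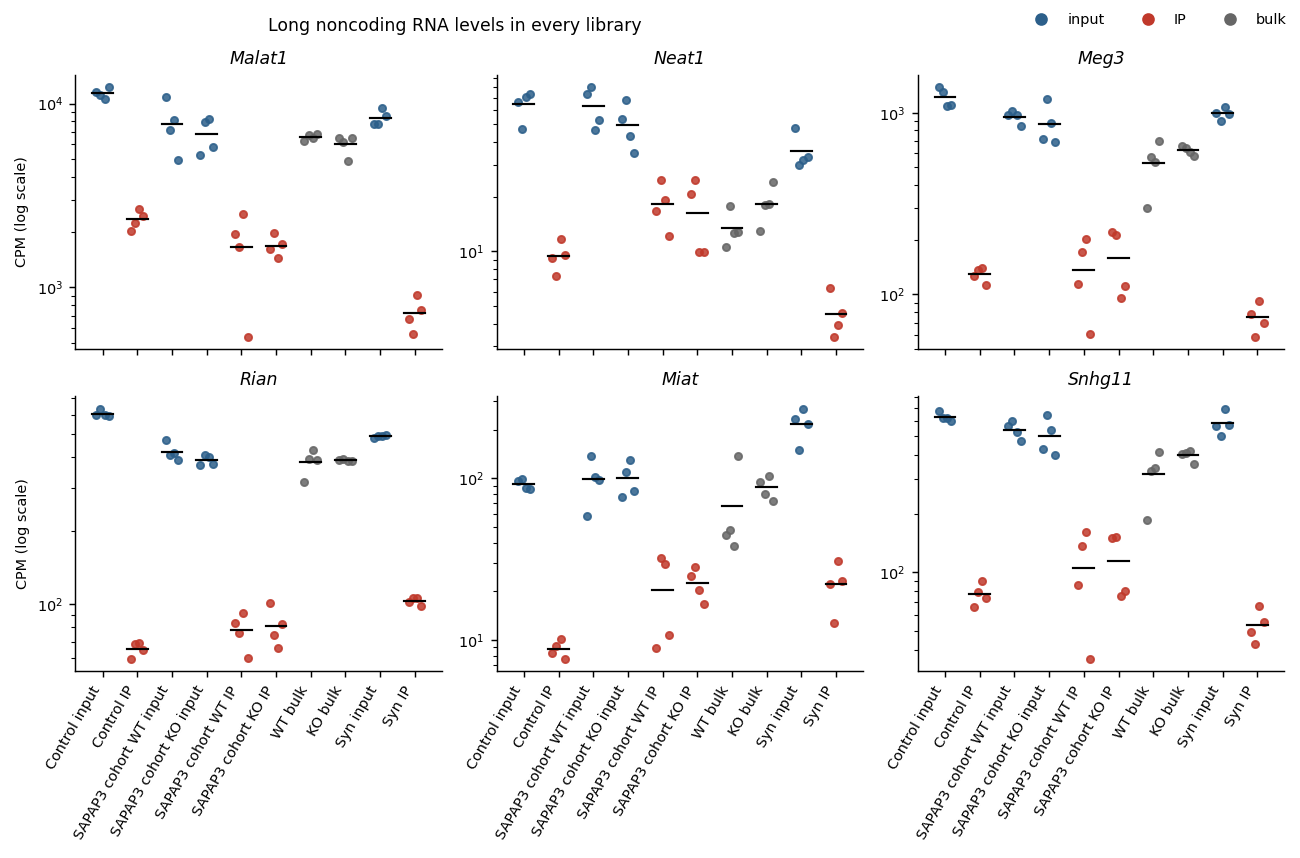
CPM on a log axis of each of the 6 long noncoding RNAs in the 4 libraries of each of 10 groups, with input in blue, IP in red and bulk tissue in grey, and the group mean as a bar. Every IP library lies below every input library of its own cohort for each RNA, as for *Malat1* in the Control libraries, 2036 to 2679 CPM in the IP and 10628 to 12318 CPM in the input. The share of all genes that separate in this way was not counted.

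*Malat1*, the speckle RNA, stood at 11507, 11132, 10628 and 12318 CPM in the 4 Control inputs and at 2036, 2243, 2679 and 2447 CPM in the IPs of the same mice. In the Syn cohort it stood at 7721, 7724, 9476 and 8553 CPM in the input and 673, 557, 916 and 756 CPM in the IP. The groups did not overlap in either cohort, and the Syn IPs were all below the Control IPs. How common such separation is over all genes was not counted, here or for the comparisons below. The log2(FC) of IP over input was -2.06 ± 0.0802 (SE; adjusted p = 7.59e-10) in Control and -3.32 ± 0.157 (SE; adjusted p = 1.20e-07) in Syn, a level 4.16-fold and 9.99-fold lower in the IP. The SAPAP3 cohort gave -2.05 ± 0.417 (SE; adjusted p = 0.00171) in WT and -1.81 ± 0.161 (SE; adjusted p = 2.59e-06) in KO. The WT IPs read 1949, 1654, 2508 and 539.5 CPM. Replicate 4, the last of these, was far below the others, and the log2(FC) without it was -1.77.

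*Neat1*, the paraspeckle scaffold, was much scarcer, at 65.9, 46.9, 70.3 and 73.7 CPM in the Control input and 9.14, 7.31, 11.7 and 9.58 CPM in its IP. The Syn input held 47.4, 29.8, 31.9 and 33.2 CPM and the Syn IP 6.28, 3.39, 3.91 and 4.57 CPM. IP and input again did not overlap, with log2(FC) of -2.54 ± 0.157 (SE; adjusted p = 3.80e-08) in Control and -2.76 ± 0.202 (SE; adjusted p = 1.35e-06) in Syn. The SAPAP3 cohort gave the smallest falls of any member, -1.63 ± 0.232 (SE; adjusted p = 1.86e-04) in WT and -1.41 ± 0.309 (SE; adjusted p = 0.00175) in KO. Its IP libraries read 12.1 to 24.6 CPM in WT and 9.89 to 24.6 CPM in KO, against 46.3 to 80.1 CPM and 34.7 to 68.3 CPM in the input. In the bulk libraries *Neat1* stood at 10.6 to 17.7 CPM in WT and 13.0 to 24.1 CPM in KO, below all 16 input libraries, of which the lowest had 29.8 CPM. Summed microglia markers showed the same split, 487 to 601 CPM in the 8 bulk libraries and 777 to 1738 CPM in the inputs, and their part was not tested. Bulk and input came from different mice and preparations, which cannot be told apart, and the *Neat1* difference was given no test.

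*Meg3*, the maternally expressed RNA of the Dlk1-Dio3 region, stood at 1386, 1309, 1083 and 1101 CPM in the Control input and 127, 136, 139.7 and 113 CPM in the IP. In Syn it stood at 996, 901, 1082 and 988 CPM in the input and at 78.2, 58.4, 92.2 and 69.6 CPM in the IP. These were among the deepest falls, -3.02 ± 0.0966 (SE; adjusted p = 1.50e-10) in Control and -3.52 ± 0.139 (SE; adjusted p = 5.03e-08) in Syn, so that its IP level was 8.12-fold and 11.5-fold lower. In the SAPAP3 cohort the IP held 60.7 to 202 CPM in WT and 95.6 to 219 CPM in KO, and the log2(FC) was -2.63 ± 0.317 (SE; adjusted p = 6.54e-05) and -2.24 ± 0.284 (SE; adjusted p = 3.57e-05).

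*Rian*, which lies downstream of *Meg3* on the same strand and carries small RNA genes in its introns, stood at 599, 634, 597 and 595 CPM in the Control input and 59.6, 68.2, 68.9 and 64.6 CPM in the IP, and at 480.3, 488, 489 and 495 CPM in the Syn input and 102, 106, 106 and 98.3 CPM in the Syn IP. Its input was lower in Syn than in Control while its IP was higher, with no overlap in either. The log2(FC) was -2.99 ± 0.0510 (SE; adjusted p = 2.69e-12) in Control and -2.04 ± 0.0419 (SE; adjusted p = 2.83e-09) in Syn, 7.96-fold and 4.11-fold lower. For the SAPAP3 cohort it was -2.27 ± 0.130 (SE; adjusted p = 7.71e-07) in WT and -2.07 ± 0.110 (SE; adjusted p = 6.77e-08) in KO. The strand setting of the counting is not given in the sources used here. Without strand, reads of *Meg3* or *Rian* and of their antisense neighbour *Rtl1* cannot be told apart where they overlap.

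*Miat*, the RNA with the TACTAAC copies printed above, stood at 95.9, 99.3, 87.0 and 86.0 CPM in the Control input and 8.26, 9.20, 10.1 and 7.67 CPM in the IP. Every Syn input library was above every library of the other groups, at 235, 151, 269.8 and 216 CPM, and the Syn IP held 22.4, 12.8, 31.0 and 23.04 CPM. The log2(FC) of IP over input was -3.16 ± 0.0838 (SE; adjusted p = 3.73e-11) in Control and -3.08 ± 0.263 (SE; adjusted p = 3.69e-06) in Syn. In the SAPAP3 cohort WT the pairs were uneven, with 58.7, 137, 102 and 97.6 CPM in the input and 8.90, 32.1, 29.4 and 10.8 CPM in the IP of the same mice. There the log2(FC) was -2.11 ± 0.434 (SE; adjusted p = 0.00182), and -1.94 ± 0.199 (SE; adjusted p = 7.19e-06) in KO.

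*Snhg11*, the snoRNA host gene, followed *Meg3* closely. It stood at 671, 621, 618 and 601 CPM in the Control input and 66.6, 79.03, 90.4 and 73.7 CPM in the IP, and at 566, 504, 692 and 574 CPM and 49.1, 42.8, 67.2 and 55.6 CPM in Syn. The groups did not overlap, and the log2(FC) was -2.80 ± 0.0838 (SE; adjusted p = 9.24e-11) in Control, -3.23 ± 0.152 (SE; adjusted p = 1.18e-07) in Syn, -2.19 ± 0.378 (SE; adjusted p = 6.47e-04) in the SAPAP3 cohort WT and -1.93 ± 0.248 (SE; adjusted p = 3.93e-05) in the KO.

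All 6 members were thus called lower in the IP in all 4 cohorts (edgeR quasi-likelihood test, Benjamini-Hochberg adjusted p under 0.05 and log2(FC) below -1). Of all genes tested, 13.5% were called lower in the Control IP, 15.8% in the Syn IP, 12.1% in the SAPAP3 cohort WT IP and 11.5% in the KO IP. At an unadjusted p under 0.05 by edgeR, in either direction, it was 81.5% in Control, 73.5% in Syn, 70.2% in WT and 74.1% in KO. The lack of overlap between IP and input libraries of the members is therefore given as a description only. The members' median log2(FC) was -2.90 in Control, -3.16 in Syn, -2.15 in WT and -1.94 in KO, beside medians of -0.02, -0.0023, -0.03 and -0.0036 over all genes tested. The calls held without each library in turn and with the pairing of IP and input as a block. Scaling to 75 ribosomal protein genes put the median of all genes at 1.17, 0.45, 0.71 and 0.62 in the 4 cohorts. All members remained negative under it, but *Malat1* in Control (-0.86) and *Neat1* in WT (-0.89) and KO (-0.79) no longer passed the fold limit.

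The pairs show the same as a share of each input. *Malat1* in the IP reached 17.7, 20.2, 25.2 and 19.9% of the paired input level in the 4 Control pairs and 8.71, 7.21, 9.66 and 8.84% in the Syn pairs, with no overlap. For *Rian* the order was the other way, 9.96, 10.7, 11.5 and 10.9% in Control and 21.1, 21.8, 21.6 and 19.9% in Syn. The Control range was 9.14% to 12.9% for *Meg3*, 8.61% to 11.6% for *Miat*, 9.92% to 14.6% for *Snhg11* and 13.0% to 16.7% for *Neat1*, and the Syn range 6.49% to 8.52%, 8.48% to 11.5%, 8.48% to 9.71% and 11.4% to 13.8%. In the SAPAP3 cohort the shares were more spread, for example 11.8, 16.6, 20.8 and 7.20% for *Meg3* in WT and 30.5, 17.8, 10.8 and 16.1% in KO.

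**Figure D2:**
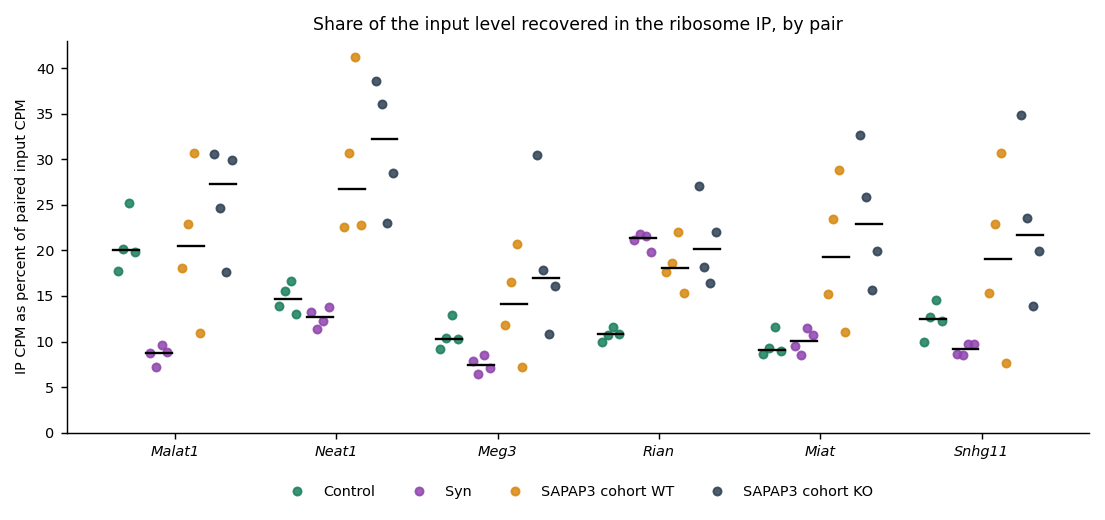
CPM in the IP as a percentage of the CPM in the paired input, for each of 4 pairs in the Control, Syn, SAPAP3 cohort WT and SAPAP3 cohort KO, with the median as a bar. *Rian* lies at 9.96% to 11.5% in Control and at 19.9% to 21.8% in Syn, and *Malat1* at 17.7% to 25.2% in Control and at 7.21% to 9.66% in Syn.

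The next comparison asks whether the depletion itself differed between the neuronal tag and the Control IP, with an interaction term. Of all genes tested, 70.1% differed between Syn and Control, in either direction, so a call was common here. *Malat1* was depleted more in Syn, by a log2 difference of -1.27 ± 0.176 (SE; adjusted p = 5.84e-06), and so were *Meg3* (-0.51 ± 0.171 SE, adjusted p = 0.0144) and *Snhg11* (-0.44 ± 0.178 SE, adjusted p = 0.0359). *Rian* was depleted less in Syn, by 0.95 ± 0.0639 (SE; adjusted p = 6.09e-10). *Miat* (0.08, 95% interval -0.55 to 0.71, adjusted p = 0.82) and *Neat1* (-0.22, 95% interval -0.80 to 0.35, adjusted p = 0.482) did not pass, and *Neat1* passed with the pairing as a block (-0.23, adjusted p = 0.0192). The *Snhg11* call was lost in 8 of 16 fits that left out 1 library, without Control input replicates 2, 3 or 4, Control IP replicates 2 or 3, Syn input replicate 3 or Syn IP replicates 1 or 2, with log2 differences of -0.43 to -0.34 among them. Under scaling to ribosomal protein genes, which moved the median of all genes in this difference to -0.72, *Rian* (0.21) no longer passed, *Miat* turned to -0.66 and *Neat1* passed (-0.96). Astrocyte and oligodendrocyte markers were lower in Syn in 10 of 10 cases each (median differences -3.49 and -1.63) and neuron markers higher in 9 of 10 (1.68). Microglia markers were higher in 8 and lower in 2 of 10 cases (median 1.02), and endothelial markers higher in 2 and lower in 3 (median 0.02). The part of these markers in the members' values was not tested. The cohorts differ in mice, and the labels give the Syn input and IP libraries different animal numbers. *Xist*, an RNA of female cells, stood at 0 to 0.0405 CPM in the Control input and at 189 to 281 CPM in the Syn input. The part of sex in these differences was not tested, and it cannot be told apart from the tag. *Rpl22*, the gene of the tagged protein, stood at 342 to 491 CPM in the Control input and 768 to 1127 CPM in the Syn input. The part of the *Rpl22* level was not tested.

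The SAPAP3 cohort WT and the Control IP share a rise of the astrocyte markers, and 20.5% of all genes differed between them in IP over input. *Rian* was depleted less in the SAPAP3 cohort WT (0.74 ± 0.139 SE, adjusted p = 0.00224), and so was *Neat1* (0.93 ± 0.302 SE, adjusted p = 0.0406). The *Neat1* call was lost in 10 of 16 fits without 1 library (log2 difference 0.75 to 0.92 in those), namely Control input replicates 1, 3 or 4, Control IP replicates 1, 2 or 4, WT input replicates 3 or 4, or WT IP replicates 2 or 3. It was also lost with limma-voom (0.91, adjusted p = 0.0585) and with ribosomal protein scaling (0.45), which also ended the *Rian* call. *Miat* differed by 1.07 (95% interval 0.07 to 2.06, adjusted p = 0.119) and passed without WT IP replicate 1 (1.32) and with the pairing as a block (0.95, adjusted p = 0.0105), which raised the genes called from 3280 to 4980. *Meg3* (0.41, 95% interval -0.31 to 1.12, adjusted p = 0.418) and *Snhg11* (0.63, 95% interval -0.23 to 1.48, adjusted p = 0.288) passed without WT IP replicate 4, with 0.65 and 0.91. *Malat1* differed by 0.02 (95% interval -0.92 to 0.96, adjusted p = 0.986). These cohorts differ in strain and mice, which cannot be told apart from the tag. *Xist* stood at 0 to 184 CPM in the SAPAP3 cohort WT input and at 0 to 0.0405 CPM in the Control input. Virus injection was at 6 weeks of age in Control, and the 4.5 months of the methods are given for SAPAP3 KO mice only. Sex and age can thus also differ between these cohorts, and their part was not tested. *Rpl22*, the gene of the tagged protein, stood at 2058 to 2787 CPM in the Control IP and 716 to 1711 CPM in the SAPAP3 cohort WT IP. In the inputs it stood at 342 to 491 CPM and 122 to 238 CPM, and the part of the *Rpl22* level was not tested. Oligodendrocyte markers also differed between them, with 9 of 10 called higher in the SAPAP3 cohort WT (median 0.90). Astrocyte markers were lower in 8 of 10 cases (median -0.56) and microglia markers higher in 5 of 10 (median 1.12), and the part of these markers in the members' values was not tested.

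**Figure D3:**
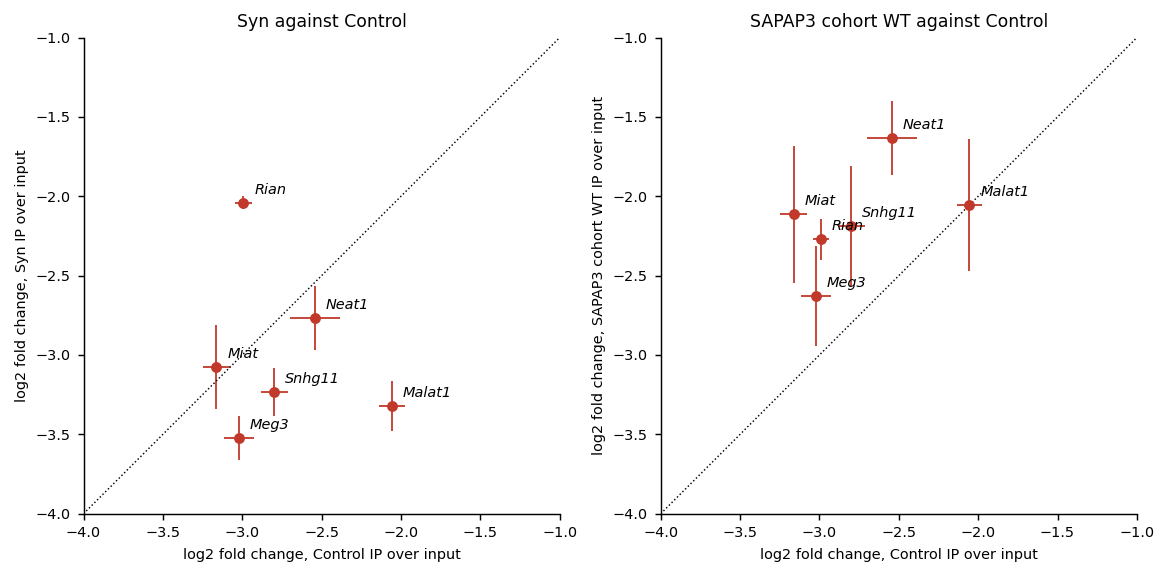
Log2 fold change of IP over input in the Syn cohort (left) and in the SAPAP3 cohort WT (right) against that in the Control cohort, 1 point for each of the 6 long noncoding RNAs with its standard error and a dotted line where both are equal. *Rian* lies above the line and *Malat1* below it on the left (log2 fold change -2.04 and -3.32 in Syn), and *Neat1*, *Miat* and *Rian* lie above it on the right.

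The SAPAP3 KO comparisons ask whether loss of SAPAP3 goes with another level of these RNAs. In the input, 0.00641% of all genes were called (1 of 15591) and 0 of 6 members. In the IP it was 0.0263% (4 of 15198) and again 0 of 6, and in bulk tissue 0% of 16020 genes. At an unadjusted p under 0.05 there were 869, 399 and 792 genes by edgeR, and none of the members in any of the 3, while DESeq2 called 8, 11 and 12 genes and limma-voom 1, 4 and 0, again without a member. *Dlgap3* itself did not pass in bulk tissue, but did without WT bulk replicate 4 (adjusted p = 0.00105) and with the DESeq2 Wald test (adjusted p = 4.98e-10). *Xist* stood at 0 to 197 CPM in WT bulk and at 0 to 0.0331 CPM in KO bulk. In the inputs it stood at 0 to 184 CPM in WT and at 0.0360 to 246 CPM in KO. Sex can thus differ between the bulk genotypes and within the input groups, and its part was not tested.

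The 95% intervals give, for each gene taken alone, the range of differences compatible with its values. They are not a limit on what is called after adjustment over all genes. *Dlgap3* in bulk tissue, at a log2(FC) of -1.14 ± 0.143 (SE), was not called by edgeR. In the input, KO over WT was -0.16 (95% interval -0.68 to 0.37, adjusted p = 0.859) for *Malat1* and -0.31 (95% interval -0.80 to 0.18, adjusted p = 0.742) for *Neat1*, and *Rian* had the narrowest interval, -0.09 (95% interval -0.23 to 0.06, adjusted p = 0.75). In the IP, it was 0.05 (95% interval -0.73 to 0.83, adjusted p = 0.999) for *Malat1* and 0.24 (95% interval -0.58 to 1.07, adjusted p = 0.999) for *Meg3*. Without WT IP replicate 4 the count of genes called in the IP fell from 4 to 0, and *Malat1* (-0.25), *Meg3* (-8.6e-05), *Miat* (-0.031), *Rian* (-0.028) and *Snhg11* (-0.14) all turned negative. For the difference of IP over input between KO and WT, 0% of 16059 genes passed (203 at an unadjusted p under 0.05, 1 by DESeq2 and 0 by limma-voom), and the members lay between 0.14 (*Miat*) and 0.35 (*Meg3*). These signs depended on single libraries. Without WT IP replicate 4, *Malat1* (-0.082), *Miat* (-0.072) and *Snhg11* (-0.069) were negative, and without KO IP replicate 2, *Neat1* (-0.10) and *Miat* (-0.0069) were. The narrowest interval in the IP was again that of *Rian*, 0.08 (95% interval -0.25 to 0.40, adjusted p = 0.999).

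In bulk tissue *Meg3*, *Snhg11*, *Miat* and *Rian* varied more between WT than between KO libraries, while *Malat1* and *Neat1* did not. The part of sex in this spread, by the *Xist* values above, was not tested. *Rian* stood at 318 to 430 CPM in WT and at 388 to 395 CPM in KO. *Meg3* stood at 299, 568, 538 and 701 CPM in WT and 654, 637, 608 and 581 CPM in KO, and *Snhg11* at 185, 333, 345 and 415 CPM and 406, 410.2, 420.4 and 361 CPM. Both were lowest in WT replicate 1, which had the highest summed oligodendrocyte markers of the WT bulk group, 8530 CPM, and the part of these was not tested. *Miat* stood at 44.9, 47.6, 38.3 and 137 CPM in WT, where replicate 4 was far above the others, and at 95.3, 80.2, 103 and 72.8 CPM in KO. The log2(FC) of KO over WT was 0.22 (95% interval -0.25 to 0.68, adjusted p = 0.985) for *Meg3*, 0.30 (95% interval -0.15 to 0.76, adjusted p = 0.984) for *Snhg11* and 0.37 (95% interval -0.49 to 1.23, adjusted p = 0.99) for *Miat*. *Neat1* was at 10.6, 17.7, 12.7 and 12.7 CPM in WT and 13.0, 17.9, 18.2 and 24.1 CPM in KO, a log2(FC) of 0.42 (95% interval -0.0011 to 0.85, adjusted p = 0.984). *Malat1* (-0.15, 95% interval -0.38 to 0.08, adjusted p = 0.984) and *Rian* (0.0031, 95% interval -0.19 to 0.19, adjusted p = 0.998) are the remaining members. Without WT replicate 4 the *Miat* value was 0.99, and it did not pass (adjusted p = 0.458).

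Other RNAs without a protein product were set beside the members, in lists that had been chosen with earlier results known. Of 22 other long noncoding RNAs tested, 14 were called lower in the Control IP and 1 higher (median log2(FC) -1.13), and 11 lower and 0 higher in the Syn IP (median -1.09). *Mir124a-1hg*, the host gene of a neuronal miRNA, fell most in both, by -3.46 ± 0.109 (SE) in Control and -3.73 ± 0.147 in Syn. *Norad* (2900097C17Rik in the table), a cytoplasmic RNA that binds Pumilio proteins and the most abundant of the list, fell in Control (-1.75 ± 0.0453), from 1266 ± 33.0 CPM (SD, n = 4) in the input to 322 ± 19.3 CPM in the IP, and had -0.95 ± 0.0801 in Syn, short of the fold limit. Its Control call was lost with ribosomal protein scaling (-0.56), and it passed in Syn with total counts (-1.16). *Pantr1* rose in the Control IP (1.34 ± 0.0529), from 38.1 ± 1.75 CPM to 82.8 ± 5.53 CPM, and *Peg13* had the highest value in Syn (0.54 ± 0.0478), not past the fold limit. In the SAPAP3 cohort 14 of 22 were lower and 1 higher in WT, and 15 of 22 lower and 1 higher in KO, the higher one again *Pantr1*.

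Of 17 snoRNA host RNAs tested in Control, 14 were called lower and none higher (median -1.70), and in Syn 13 of 16 (median -1.29). *Gas5*, the most abundant, had -1.71 ± 0.0581 and -1.36 ± 0.0505, short of the fold limit with ribosomal protein scaling (-0.51 and -0.90), and *Dancr* had the lowest value in both (-3.24 ± 0.239 and -3.62 ± 0.291). Among the SAPAP3 cohort libraries 9 of 16 were lower in WT and 8 of 16 in KO. Of 9 small nuclear and nucleolar RNAs, 8 were lower in Control (median -4.50) and 8 in Syn (median -3.50), with 7 each in WT and KO. *Rmrp*, the RNA of RNase MRP, fell from 1653 ± 185 CPM to 8.64 ± 0.866 CPM in Control (-7.36 ± 0.105), and *Rpph1*, the RNA of RNase P, by -5.43 ± 0.114. *Scarna13* was the exception, at -0.14 ± 0.0405 in Control and 0.28 ± 0.0484 in Syn.

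The mRNAs of proteins that reside in the nuclear bodies served as a contrast. Of 14 tested, none was called in Control (median -0.03), and 1 was lower in Syn (median 0.01), *Sfpq*, a paraspeckle protein, at -1.04 ± 0.0701, which fell short of the limit without Syn input replicate 3 (-0.99). *Srrm2*, a speckle protein, stood at 0.64 ± 0.0367 and *Sfpq* at -0.55 ± 0.0412 in Control, and *Hnrnpk* at 0.46 ± 0.0419 in Syn. None of the 14 was called in the SAPAP3 cohort (medians -0.06 in WT and 0.0021 in KO). Over all genes with a RefSeq biotype, 47.2% of 579 long noncoding RNAs and 11.1% of 13807 protein-coding genes were called lower in the Control IP, and 41.1% of 684 and 13.5% of 14286 in the Syn IP. The shares were 40.5% of 578 and 10.1% of 13909 in the SAPAP3 cohort WT, and 40.2% of 579 and 9.57% of 13923 in the KO.

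Markers of microglia and endothelial cells were also low in the IP, while those of other cell types differed by cohort. Microglia markers were called lower in 10 of 10 cases in each of the 4 cohorts, with medians of -5.61 in Control, -4.44 in Syn, -4.49 in WT and -3.54 in KO. Their summed level was 957 to 1190 CPM in the Control input and 52.6 to 59.9 CPM in the IP. Endothelial markers were lower in 10, 8, 9 and 9 of 10 cases (medians -3.44, -3.51, -3.22 and -2.81). Neuron markers had a median of -0.83 in the Control IP with 3 of 10 called lower, and their summed level there was still 4420 to 4760 CPM. Oligodendrocyte markers were called lower in 10 of 10 cases in Syn (median -1.79) and in 1 of 10 in Control (median -0.16). In the SAPAP3 cohort none was lower and 4 of 10 were called higher in each of WT (median 0.75) and KO (median 0.77). Astrocyte markers in Syn had a median of -0.51 with none called. What part of a member's fall goes with RNA of untagged cells and what part with RNA off the ribosomes was not tested.

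**Figure D4:**
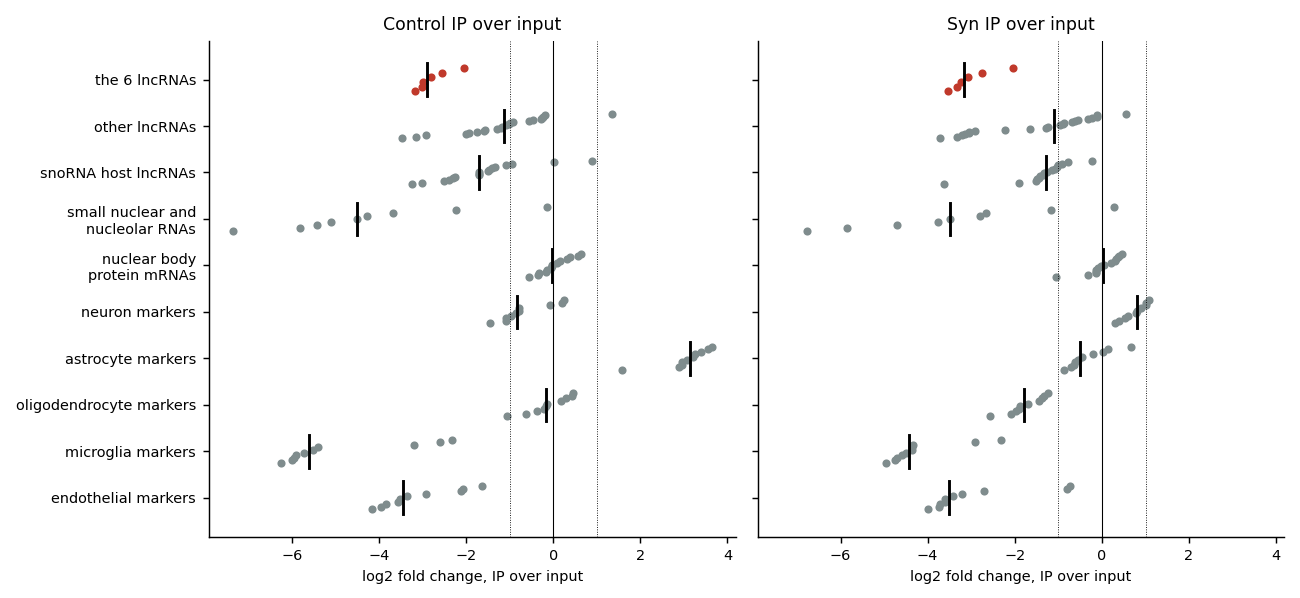
Log2 fold change of IP over input in the Control (left) and Syn (right) cohorts, 1 point for each gene tested, with the median of each list as a bar and dotted lines at the fold limit. The 6 long noncoding RNAs (red) have medians of -2.90 and -3.16, between those of the other long noncoding RNAs (-1.13 and -1.09) and the small nuclear and nucleolar RNAs (-4.50 and -3.50), while the nuclear body protein mRNAs centre on -0.03 and 0.01.

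The pattern of each member over the 10 groups was compared with that of every other gene. By Pearson's r of log2(mean CPM + 1) over the 10 group means, which share the IP and input contrast and are given as a description, *Meg3* and *Snhg11* were each other's closest of 11762 genes (r = 0.997). The other pairs of members had lower r, some of them still high. *Meg3* ranked 5 among the genes like *Malat1*, and the r between *Malat1* and *Snhg11* was 0.964. Between *Rian* and each of *Meg3*, *Snhg11* and *Miat* it was 0.951, 0.949 and 0.942. *Malat1* and *Miat* were less alike (r = 0.820), and so was *Neat1* to each other member, with r of at most 0.866. The r between *Neat1* and each of *Malat1*, *Rian* and *Miat* was 0.820, 0.718 and 0.716, and *Neat1* ranked 3293 among the genes like *Rian*. *Meg3* was further like *Firre* (r = 0.995), another nuclear long noncoding RNA, and *Siglech* (r = 0.994), a microglial surface gene. *Snhg11* was further like *Ap4e1* (r = 0.996) and *Rnpc3* (r = 0.995), which encodes a protein of the minor spliceosome. The genes most like *Malat1* were *A330023F24Rik*, a long noncoding RNA (r = 0.987), *Zfp652* (r = 0.978) and *Atxn7* (r = 0.977). *Rian* was most like *Pcgf6*, *Pvt1* and *Helq* (r = 0.996, 0.996 and 0.994), *Miat* like *Ddx17*, *Tia1* and *Dclre1c* (r = 0.982, 0.978 and 0.977), and *Neat1* like *Rps6ka1*, *Pkd1* and *Unc93b1* (r = 0.979, 0.976 and 0.970).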

How the data were processed

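RNA-seq of 40 striatal libraries was analysed from the gene count table that the authors deposited, which holds raw counts per gene symbol with no normalization. The submitters' processing notes name STAR, HTSeq and mm10, and versions, strand setting and annotation are not given in the sources used here. The labels name poly(A) RNA and a ribosomal RNA depletion kit, and the study's methods another kit, so the selection of RNA is uncertain. CPM was taken over all counted genes, and FPKM used the merged RefSeq exons of GRCm38.p6.

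Groups came from the labels. Each comparison was fitted across all genes that passed filterByExpr with edgeR 4.0.16 (TMM scaling, quasi-likelihood test, Benjamini-Hochberg adjustment) in R 4.3.3. IP over input was called at an adjusted p under 0.05 and an absolute log2(FC) above 1, and genotype and interaction terms at an adjusted p under 0.05 alone. Alternatives used DESeq2 1.42.0 size factors and Wald test, limma 3.58.1 with voom, total counts, 75 ribosomal protein genes, scaling without the members, no filter, the pairing as a block, and each library left out. The procedure was tested on simulated data with 200 genes changed by a log2(FC) of 1. At an adjusted p under 0.05 without the fold limit, 71.9% to 91% of them were recovered over the 10 comparisons. False calls made up 3.51% to 8.94% of the calls. The fold limit of the IP over input calls was not part of this test. Apart from the changed genes, as many raised as lowered, each gene had a common mean in all simulated libraries, without pairing. The real comparisons differ from this, as in the Syn IP, where 68 genes were called higher and 2567 lower. The rates thus do not show how the scaling acts on the real data.

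IP and input of an animal share its number in the labels for the Control and SAPAP3 cohorts, and the title number in Syn. The deviations of same-numbered samples from their group means correlated at 0.252 to 0.584 in Control, 0.483 to 0.788 in Syn, 0.522 to 0.682 in WT and 0.433 to 0.604 in KO. Libraries of a group are treated as separate mice, although the labels leave the number of mice unclear, and p-values measure the spread between these samples.

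The members and the gene lists were chosen with earlier results of these data known. Besides the members, the text names in each list the gene with the highest level and those with the largest rise and fall, and per member the 3 genes most alike over the group means, among genes whose mean level reached 5 CPM. Of the symbols, 99.2% matched a RefSeq length. Mitochondrially encoded mRNAs were not analysed here.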

Additional observations from a re-analysis of the deposited data

Results flagged for a closer look

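Of 60 sets of 4 libraries (6 RNAs in 10 groups), 2 held a library whose gap to the nearest one was a larger share of the range than Dixon's 95% critical value, where chance gives about 1 in 20 such sets. *Miat* stood at 137 CPM in WT bulk replicate 4, and the gap was 0.906 of the range. *Rian* stood at 634 CPM in Control input replicate 2, with a gap of 0.904 of a narrow range.

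IP over input differed between cohorts, by the interaction term, for 6 values. Of all genes, 70.1% differed between Syn and Control and 20.5% between the SAPAP3 cohort WT and Control. Between Syn and Control the log2 difference was -1.27 for *Malat1*, -0.51 for *Meg3*, -0.44 for *Snhg11* and 0.95 for *Rian*. Between the SAPAP3 cohort WT and Control it was 0.93 for *Neat1* and 0.74 for *Rian*. The *Snhg11* call was lost in 8 of 16 fits without 1 library, and the *Neat1* call in 10 of 16.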

How the results depend on the processing

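The members' fall in the IP was called in all 192 fits that left out 1 library and in 189 of 192 fits with another setting. The exceptions came with ribosomal protein scaling, *Malat1* in Control (-0.86) and *Neat1* in the SAPAP3 cohort WT (-0.89) and KO (-0.79). That scaling called 9952 genes in Control, 5904 in WT and 8794 for WT minus Control. It raised the share of higher calls from 49.8% to 93.4% in Control, from 2.58% to 41.2% in Syn, from 47.4% to 84.98% in WT and from 51.6% to 83.7% in KO, while total counts gave 37.3%, 0.481%, 36.4% and 38.8%. Under it *Scarna13* (1.06) and *Sfpq* (0.65) were positive in Control. For Syn minus Control it gave -0.96 for *Neat1*, -0.66 for *Miat* and 0.21 for *Rian*, and for WT minus Control -0.43 for *Malat1*, 0.45 for *Neat1*, -0.059 for *Meg3* and 0.28 for *Rian*. The cause was not tested.

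The DESeq2 Wald test called 8 genes for KO over WT in input, 11 in IP, 12 in bulk and 1 for KO minus WT. *Rian* in bulk was -0.00067 with DESeq2 size factors and -0.0010 with the Wald test. *Malat1* for WT minus Control was -0.011 with either, -0.12 with limma-voom and -0.12 with the pairing as a block, and *Neat1* was 0.91 with limma-voom. With the pairing as a block, *Neat1* for Syn minus Control passed at -0.23, *Miat* for WT minus Control at 0.95, and 4980 genes were called for WT minus Control. The block changed no other call of a member.

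Leaving out 1 library gave 0 to 1 genes for KO over WT in input, 0 to 3 in IP and 0 to 1 in bulk. In input the log2(FC) ranged from -0.32 to 0.025 for *Malat1*, -0.15 to 0.24 for *Miat* and -0.22 to 0.023 for *Snhg11*. In IP it ranged from -0.25 to 0.32 for *Malat1*, -0.42 to 0.051 for *Neat1*, -8.6e-05 to 0.50 for *Meg3*, -0.072 to 0.48 for *Miat*, -0.042 to 0.17 for *Rian* and -0.14 to 0.43 for *Snhg11*, and in bulk from -0.068 to 0.068 for *Rian*. For Syn minus Control it was -0.13 to 0.28 for *Miat* and -0.58 to -0.34 for *Snhg11*. For KO minus WT it was -0.082 to 0.49 for *Malat1*, -0.10 to 0.39 for *Neat1*, -0.12 to 0.45 for *Miat* and -0.069 to 0.51 for *Snhg11*. For WT minus Control it was -0.29 to 0.31 for *Malat1*, 0.75 to 1.08 for *Neat1*, 0.12 to 0.65 for *Meg3*, 0.76 to 1.32 for *Miat* and 0.30 to 0.91 for *Snhg11*.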
